A study of Homo sapiens with 9 samples.

Results

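Kinesins are motor proteins that use ATP to act on microtubules. Many carry cargo along these tracks, a second set builds the mitotic spindle and divides the cell, and smaller sets work in cilia and centrioles or trim microtubule ends. In dividing cells the genes of the mitotic set are expressed mostly around G2 and M phase, under promoters that often carry a CHR element (a short G2/M control sequence) and CCAAT boxes, the sequence bound by NF-Y. The kinesin motor genes described here are the protein-coding genes named KIF with a number, plus KIFC1, KIFC2 and KIFC3, that held at least 15 counts over all libraries. They were 37 of 27671 genes in the count table: 11 mitotic kinesins, 15 transport kinesins, 5 kinesins of cilia and centrioles, and 6 others. 43 symbols matched. KIF28P is not protein-coding, and KIF19 (6 counts), KIF25 (3), KIF4B (10), KIF2B (0) and KIFC1 (0) fell under the minimum. The nearest gene above it was KIF6, with 53 counts. KIF4B is a near copy of KIF4A, so reads of the pair may not be separated. KIFC1, a minus-end motor of the spindle, was listed at 0 in all 9 libraries, and so were PFDN6, RGL2, ZBTB22 and CUTA, which lie next to it or close by. No level was read from its 0.

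The 9 RNA-seq libraries came from Caco-2, an established line of human colon adenocarcinoma cells that can take on features of small intestinal enterocytes. All cells were kept in aMEM with 10% lipid-depleted FBS and antibiotics and received 10 µM lovastatin, an inhibitor of HMG-CoA reductase, for 48 h. 3 libraries had lovastatin alone, 3 had 10 µM SGA360 as well, and 3 had 10 µM SGA315 as well. The series calls both compounds selective ligands of AHR, the aryl hydrocarbon receptor, a transcription factor that binds DNA once a ligand has bound it. All groups carry lovastatin, so its own effect was not measured, and the data come from 1 cell line. Whether the libraries of one group stem from separate cultures is not stated. P-values therefore refer to the spread among the libraries sequenced, which could be technical.

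Depth was 12343058 to 16882426 counts per library over 1 transcript entry per gene. A count of 0 allows up to 3 counts, or 0.178 to 0.243 CPM (counts scaled to a common library size), a limit that covers counting error only. Each of the 9 libraries was closest to its own group. Of 8 intestinal epithelial markers, CDX1 was listed at 0 and KRT20 was near 0. Of the 6 tested, VIL1, EPCAM, CDH17, KRT8 and HNF4A fell with each ligand, HNF4A by little with SGA315 (-0.06, adjusted p = 0.0496). CDX2 was not called with SGA360 (0.08, adjusted p = 0.0676) and rose with SGA315 (0.63, adjusted p = 4.05e-24). Summed over the 8, the level was 5127 to 5163 CPM in the lovastatin libraries, 3632 to 3932 CPM in the SGA360 libraries, and in the SGA315 libraries it was 2802 to 2899 CPM. Most of this sum was KRT8, with group means of 3478, 2630.1 and 1492 CPM in the same order. The summed level of 10 markers of other cell types (immune cells, endothelium, fibroblasts, muscle and glia), of which 6 failed the filter on low counts, was 8.56 to 10.1, 8.73 to 9.76 and 9.15 to 10.7 CPM in the same order, and DCN, COL1A2, ACTA2 and CD3E were at or near 0. The sum hides changes of single markers. Of the 4 tested, 1 was called lower with SGA360, as were 31.4% of all genes. With SGA315 2 were called higher and 1 lower, against 36.1% and 33.2% of all genes. The part of the lower epithelial marker sum in the kinesin results was not tested.

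Promoter sequences show what most mitotic kinesin genes have in common outside the expression data. The sequences below are the bases just before the annotated gene start, from RefSeq (GRCh38.p14), 5′ to 3′ on the strand of the gene. Capitals mark the CHR core (TTTGAA or TTCGAA) and the CCAAT box on either strand, so TTCAAA and ATTGG are the same motifs on the opposite strand. The genes were picked by hand as examples, so their motifs do not stand for the shares in their classes, which follow below. KIF20A is shown over 100 bases and the others over 80. KIF22 has 2 annotated starts, and the one with both motifs was chosen. 5 of the 6 mitotic genes carry both motifs in the stretch shown, KIF20A carries 2 CCAAT boxes without a CHR core, and the transport gene KIF16B holds neither.
KIF11: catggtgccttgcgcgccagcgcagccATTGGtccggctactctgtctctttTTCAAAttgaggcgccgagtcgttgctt
KIF22: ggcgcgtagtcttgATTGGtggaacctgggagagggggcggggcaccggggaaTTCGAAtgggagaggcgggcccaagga
KIF4A: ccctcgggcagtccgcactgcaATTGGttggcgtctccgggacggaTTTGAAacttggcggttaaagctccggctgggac
KIF23: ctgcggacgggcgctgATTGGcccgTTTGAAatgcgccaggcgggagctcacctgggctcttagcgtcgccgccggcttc
KIF18A: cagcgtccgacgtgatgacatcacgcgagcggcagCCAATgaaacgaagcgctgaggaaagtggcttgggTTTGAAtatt
KIF20A: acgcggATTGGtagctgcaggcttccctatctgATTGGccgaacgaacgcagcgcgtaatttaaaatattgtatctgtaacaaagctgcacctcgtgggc
KIF16B: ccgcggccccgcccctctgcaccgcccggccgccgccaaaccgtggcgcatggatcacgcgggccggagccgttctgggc

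30 of the 37 genes were in the promoter table, among them all 11 mitotic kinesins and 11 transport kinesins. In windows from 250 bases before to 50 bases after the start, a CHR core was found in 9 of the 11 mitotic genes (81.8%), in 1 of the 11 transport genes (9.09%, KIF5B) and in 19.5% of all 27305 genes in the table. A CCAAT box was found in 9 mitotic genes (81.8%), 4 transport genes (36.4%) and 39.7% of all genes. Both motifs were found in 8 mitotic genes (72.7%), in 1 transport gene (KIF5B) and in 7.85% of all genes. Outside these 2 classes KIF24, a kinesin of cilia and centrioles, also held both, and it was not called with either ligand. KIF15 had the CHR core without a CCAAT box, and KIF2C had neither. The core of the AHR response element, GCGTG on either strand, was found in 7 mitotic genes (63.6%), 6 transport genes (54.5%) and 40.6% of all genes. TTCGAA reads the same on both strands, and neighbouring matches can share 1 base at their edges. A match is a string of letters and not a measured binding site, and the motif groups were not tested.

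**Figure D1:**
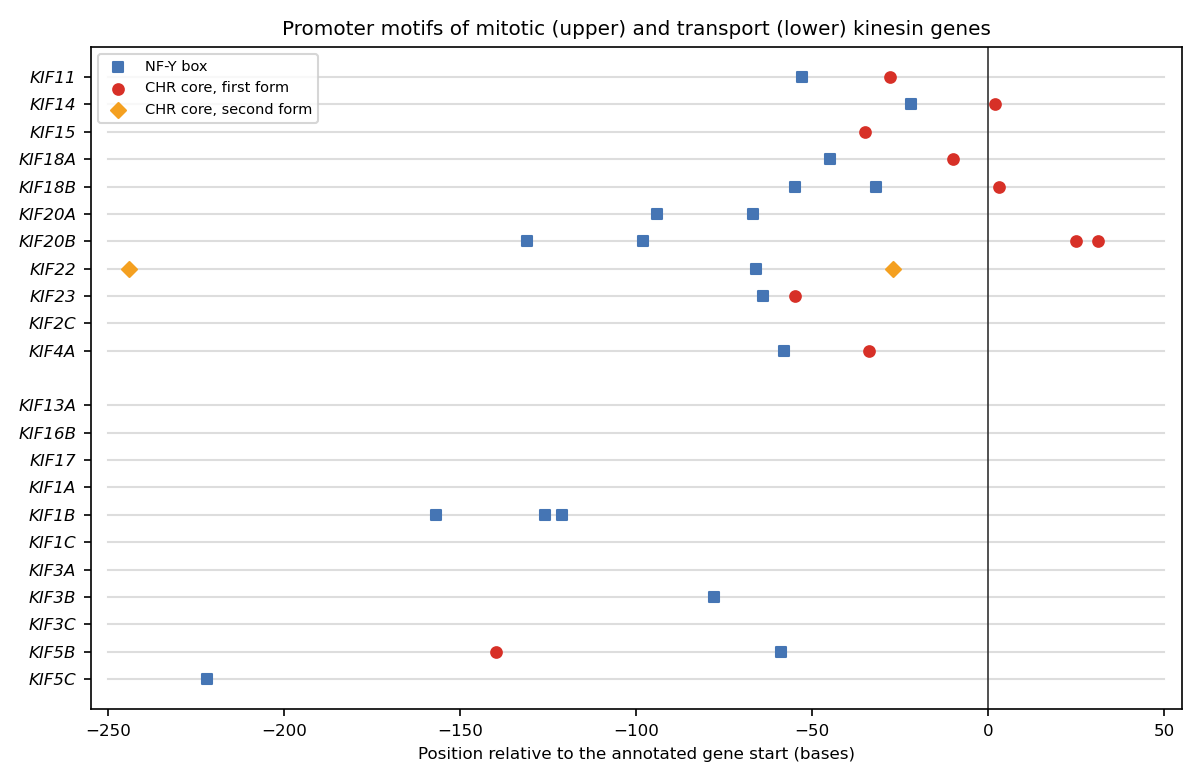
Positions of CCAAT (NF-Y) boxes and of the TTTGAA (first) and TTCGAA (second) forms of the CHR core from 250 bases before to 50 bases after the annotated start, for the 11 mitotic (upper rows) and 11 transport (lower rows) kinesin genes in the RefSeq promoter table, with all starts of a gene in 1 row. 10 of the 11 mitotic rows hold a marker, against 4 of the 11 transport rows.

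Of the 35 kinesin genes that passed the filter on low counts, 12 rose and 18 fell with SGA360, and 10 rose and 18 fell with SGA315. A gene is called changed at an adjusted p under 0.05 (edgeR quasi-likelihood test, Benjamini-Hochberg adjustment over all genes tested), which held for 62.8% of all 14659 genes tested with SGA360 and 69.3% with SGA315. All 11 mitotic kinesin genes fell with SGA360, and all 11 fell with SGA315. The classes were set with earlier results of these data known. KIF2A, which also acts at spindle poles, was placed among the other kinesins. It was not called with SGA360 (0.07) and rose with SGA315 (0.11). The median log2 fold change of the 11 mitotic kinesins was -0.35 with SGA360 (range -0.95 to -0.20) and -0.44 with SGA315 (range -0.85 to -0.19), against medians of 0.02 and 0.04 over all genes tested. By the rule above 31.4% of all genes fell with SGA360 and 33.2% with SGA315. In each comparison the 3 ligand libraries of every mitotic kinesin lay below the 3 lovastatin libraries, which held for 32.9% of all genes with SGA360 and 33.8% with SGA315. Both ligand comparisons share the lovastatin libraries, so they are not independent of each other. Where 2 changes of a gene are given in a row, SGA360 comes first. Over all 35 members, 12 lay wholly above and 17 wholly below the lovastatin libraries with SGA360, against 33.4% and 32.9% of all genes, and 10 and 19 did so with SGA315, against 36.6% and 33.8%. In bulk RNA, fewer dividing cells and less of these transcripts per cell cannot be told apart.

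Scaling to library totals alone shifts the median of all genes by over 0.1, to 0.14 with SGA360 and 0.16 with SGA315. The mitotic medians then became -0.23 and -0.32. KIF18A with SGA360 (-0.09, adjusted p = 0.291) and KIF15 (-0.09, adjusted p = 0.148), KIF18A (-0.16, adjusted p = 0.0506) and KIF20B (-0.07, adjusted p = 0.204) with SGA315 were no longer called, which left 10 and 8 of 11. All 11 kept a negative sign in both comparisons.

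**Figure D2:**
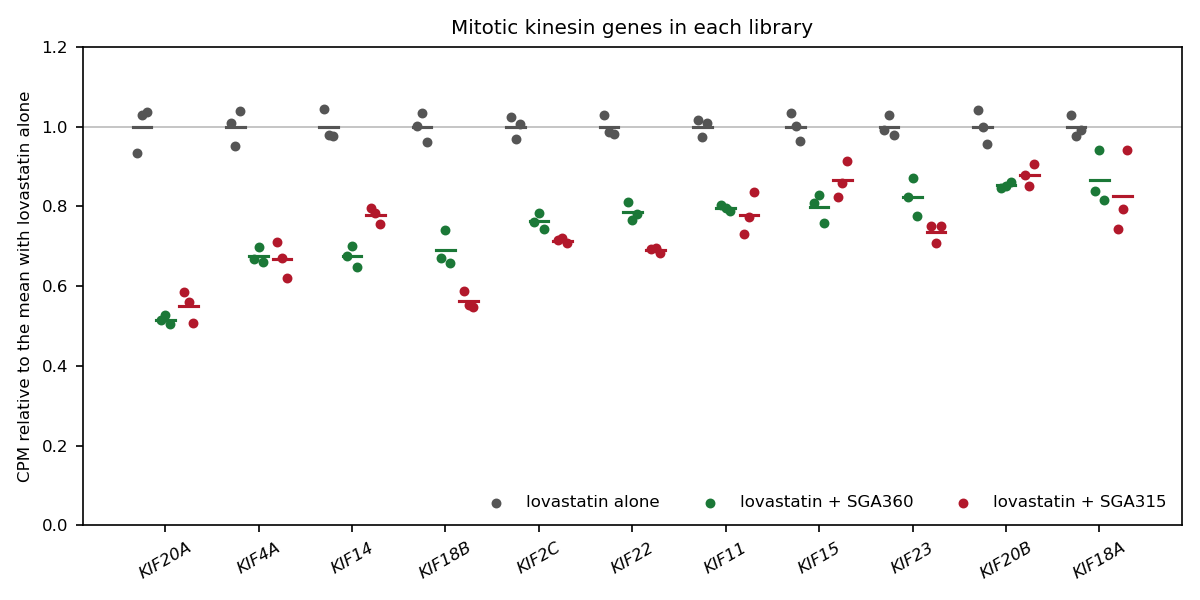
CPM of the 11 mitotic kinesin genes in each of the 9 libraries, divided by the gene's mean with lovastatin alone; points are libraries, short lines are group means of 3, and the vertical axis starts at 0. Both ligand groups lie below the lovastatin libraries for every gene, furthest for KIF20A by group means in both; the nearest were KIF18A with SGA360 and KIF20B with SGA315.

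KIF11 and KIF15 keep the spindle bipolar. KIF11 (Eg5), the tetrameric motor that slides spindle poles apart, measured 96.3, 92.3 and 95.8 CPM with lovastatin alone, 76.1, 75.3 and 74.6 CPM with SGA360, and 69.3, 73.3 and 79.2 CPM with SGA315. Its log2 fold change was -0.33 ± 0.040 (SE, adjusted p = 7.57e-11) with SGA360 and -0.36 ± 0.041 (SE, adjusted p = 4.56e-12) with SGA315. The ligand libraries were all lower than the lovastatin libraries, and the ligand groups overlapped each other. KIF15, a motor that helps to keep the poles apart, measured 40.2, 38.9 and 37.5 CPM with lovastatin alone, 31.4, 32.2 and 29.5 CPM with SGA360, and 32.0, 33.4 and 35.5 CPM with SGA315. It changed by -0.32 ± 0.056 (SE, adjusted p = 1.35e-06) with SGA360 and -0.21 ± 0.056 (SE, adjusted p = 0.000763) with SGA315, again with no overlap with lovastatin alone.

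The chromokinesins KIF4A and KIF22 bind chromosome arms. KIF4A, which also shortens the central spindle overlap together with PRC1, measured 72.3, 68.2 and 74.5 CPM with lovastatin alone, 47.8, 50.1 and 47.3 CPM with SGA360, and 50.9, 48.0 and 44.5 CPM with SGA315. Its change was -0.57 ± 0.046 (SE, adjusted p = 2.58e-17) with SGA360 and -0.58 ± 0.047 (SE, adjusted p = 1.04e-17) with SGA315, and the ligand groups overlapped. KIF22 (Kid), which pushes chromosome arms towards the spindle equator, measured 142, 136 and 136 CPM with lovastatin alone, 112, 106 and 108 CPM with SGA360, and 95.8, 96.0 and 94.2 CPM with SGA315. KIF22 changed by -0.35 ± 0.035 (SE, adjusted p = 6.27e-14) with SGA360 and -0.53 ± 0.036 (SE, adjusted p = 1.68e-21) with SGA315, and its SGA315 libraries were the lowest of the 9.

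KIF2C, KIF18A and KIF18B act at microtubule ends. KIF2C (MCAK), which takes apart microtubule ends at the centromere, measured 86.3, 81.8 and 85.0 CPM with lovastatin alone, 64.2, 66.2 and 62.7 CPM with SGA360, and 60.3, 60.8 and 59.7 CPM with SGA315. It changed by -0.39 ± 0.040 (SE, adjusted p = 3.34e-13) with SGA360 and -0.49 ± 0.042 (SE, adjusted p = 9.98e-17) with SGA315, with 3 separate groups of libraries. The difference of KIF2C between the ligands was not called (0.097, adjusted p = 0.0616). KIF18B, which works with KIF2C on astral microtubules, measured 57.3, 59.2 and 55.04 CPM with lovastatin alone, 38.4, 42.3 and 37.7 CPM with SGA360, and 33.7, 31.5 and 31.3 CPM with SGA315. Its change was -0.53 ± 0.050 (SE, adjusted p = 1.05e-14) with SGA360 and -0.83 ± 0.053 (SE, adjusted p = 2.38e-22) with SGA315, and the 3 groups did not overlap. KIF18A, which damps chromosome movements at the spindle equator, measured 23.4, 22.2 and 22.6 CPM with lovastatin alone, 19.0, 21.4 and 18.6 CPM with SGA360, and 16.9, 18.02 and 21.4 CPM with SGA315. It changed by -0.20 ± 0.074 (SE, adjusted p = 0.0138) with SGA360 and -0.28 ± 0.076 (SE, adjusted p = 0.000767) with SGA315, the former call being lost without the third SGA360 library. Its highest ligand libraries, at 21.4 CPM, came close to its lowest lovastatin library, at 22.2 CPM.

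KIF14, KIF20A, KIF20B and KIF23 work at the spindle midzone and in cytokinesis. KIF20A (MKLP2), which brings the chromosomal passenger complex to the midzone, measured 103, 113 and 114 CPM with lovastatin alone, 56.5, 58.1 and 55.5 CPM with SGA360, and 64.4, 61.4 and 55.8 CPM with SGA315. It changed by -0.95 ± 0.043 (SE, adjusted p = 6.37e-30) with SGA360 and -0.85 ± 0.043 (SE, adjusted p = 1.40e-27) with SGA315, which is 0.517 and 0.553 times the lovastatin level and the furthest fall of the class in both comparisons. The strand setting is not stated, so the counts of KIF20A may include reads of CDC23, which overlaps it in the RefSeq annotation. CDC23 itself changed by -0.15 ± 0.037 (SE, adjusted p = 0.000333) with SGA360 and -0.07 ± 0.037 (SE, adjusted p = 0.0761), which is not called, with SGA315. KIF14, a motor bound by PRC1 and citron kinase, measured 30.1, 28.2 and 28.1 CPM with lovastatin alone, 19.5, 20.2 and 18.6 CPM with SGA360, and 23.0, 22.6 and 21.8 CPM with SGA315. Its change was -0.56 ± 0.065 (SE, adjusted p = 1.85e-11) with SGA360 and -0.36 ± 0.065 (SE, adjusted p = 1.56e-06) with SGA315, and no 2 groups overlapped. KIF23 (MKLP1), the motor of centralspindlin, measured 83.6, 87.0 and 82.5 CPM with lovastatin alone, 69.4, 73.5 and 65.6 CPM with SGA360, and 63.4, 59.9 and 63.3 CPM with SGA315. It changed by -0.27 ± 0.041 (SE, adjusted p = 4.28e-08) with SGA360 and -0.44 ± 0.043 (SE, adjusted p = 2.62e-14) with SGA315, in 3 separate groups of libraries. KIF20B, a midzone motor needed late in cytokinesis, measured 61.2, 58.7 and 56.2 CPM with lovastatin alone, 49.7, 49.95 and 50.5 CPM with SGA360, and 51.6, 49.9 and 53.2 CPM with SGA315. Its change was among the smallest of the class, at -0.23 ± 0.046 (SE, adjusted p = 1.34e-05) with SGA360 and -0.19 ± 0.046 (SE, adjusted p = 0.000316) with SGA315.

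When the test asked for a change beyond 1.5-fold (edgeR glmTreat), 1 mitotic kinesin was called with SGA360, KIF20A, and 2 with SGA315, KIF20A and KIF18B, against 2.78% and 5.12% of all genes called lower by this test. The other calls thus concern falls for which a size above 1.5-fold was not shown.

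Partners of the mitotic kinesins also fell. From a list of 19 spindle and midzone genes that are not kinesins, 19 fell with SGA360 (median log2 fold change -0.50) and 19 with SGA315 (median -0.53), against 31.4% and 33.2% of all genes. ECT2, the exchange factor that starts cleavage furrow ingression, changed by -0.71 ± 0.041 (SE, adjusted p = 4.24e-24) and -0.82 ± 0.043 (SE, adjusted p = 4.33e-27). PLK1, a mitotic kinase, changed by -0.51 ± 0.040 (SE, adjusted p = 2.99e-18) and -0.77 ± 0.042 (SE, adjusted p = 2.92e-26). ANLN, a scaffold of the contractile ring, changed by -0.61 ± 0.038 (SE, adjusted p = 1.36e-22) and -0.73 ± 0.040 (SE, adjusted p = 4.45e-26). PRC1, which bundles midzone microtubules, changed by -0.47 ± 0.039 (SE, adjusted p = 2.96e-17) and -0.45 ± 0.039 (SE, adjusted p = 4.42e-16). RACGAP1, the partner of KIF23 in centralspindlin, changed by -0.34 ± 0.038 (SE, adjusted p = 3.69e-12) and -0.27 ± 0.038 (SE, adjusted p = 3.84e-09). Of the kinesins with other names, CENPE, the kinetochore motor, measured 52.1, 49.0 and 48.7 CPM with lovastatin alone, 36.5, 41.7 and 38.8 CPM with SGA360, and 42.1, 43.3 and 45.7 CPM with SGA315. It changed by -0.36 ± 0.052 (SE, adjusted p = 1.52e-08) and -0.20 ± 0.052 (SE, adjusted p = 0.000672). STARD9, a centrosomal kinesin at 0.472 to 1.95 CPM, was not called in any comparison.

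Transport kinesins did not share a direction. Of the 14 tested, 7 rose and 5 fell with SGA360 (median log2 fold change 0.15, range -0.24 to 0.62), and 7 rose and 5 fell with SGA315 (median 0.10, range -0.51 to 0.47). By the same rule 31.4% of all genes rose with SGA360 and 36.1% with SGA315, and 31.4% and 33.2% fell. The median of the mitotic kinesins lay 0.50 (SGA360) and 0.54 (SGA315) below that of the transport kinesins on the log2 scale. Scaling to totals alone gave 9 rises and 1 fall with SGA360 and 7 and 2 with SGA315, so the split of calls in this class depends on the scaling. The calls over all 14659 genes shifted as well, to 6474 rises and 3136 falls with SGA360 and 6928 and 3620 with SGA315. KIF5A, a neuronal heavy chain, failed the filter on low counts with 0.121 to 1.19 CPM per library.

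**Figure D3:**
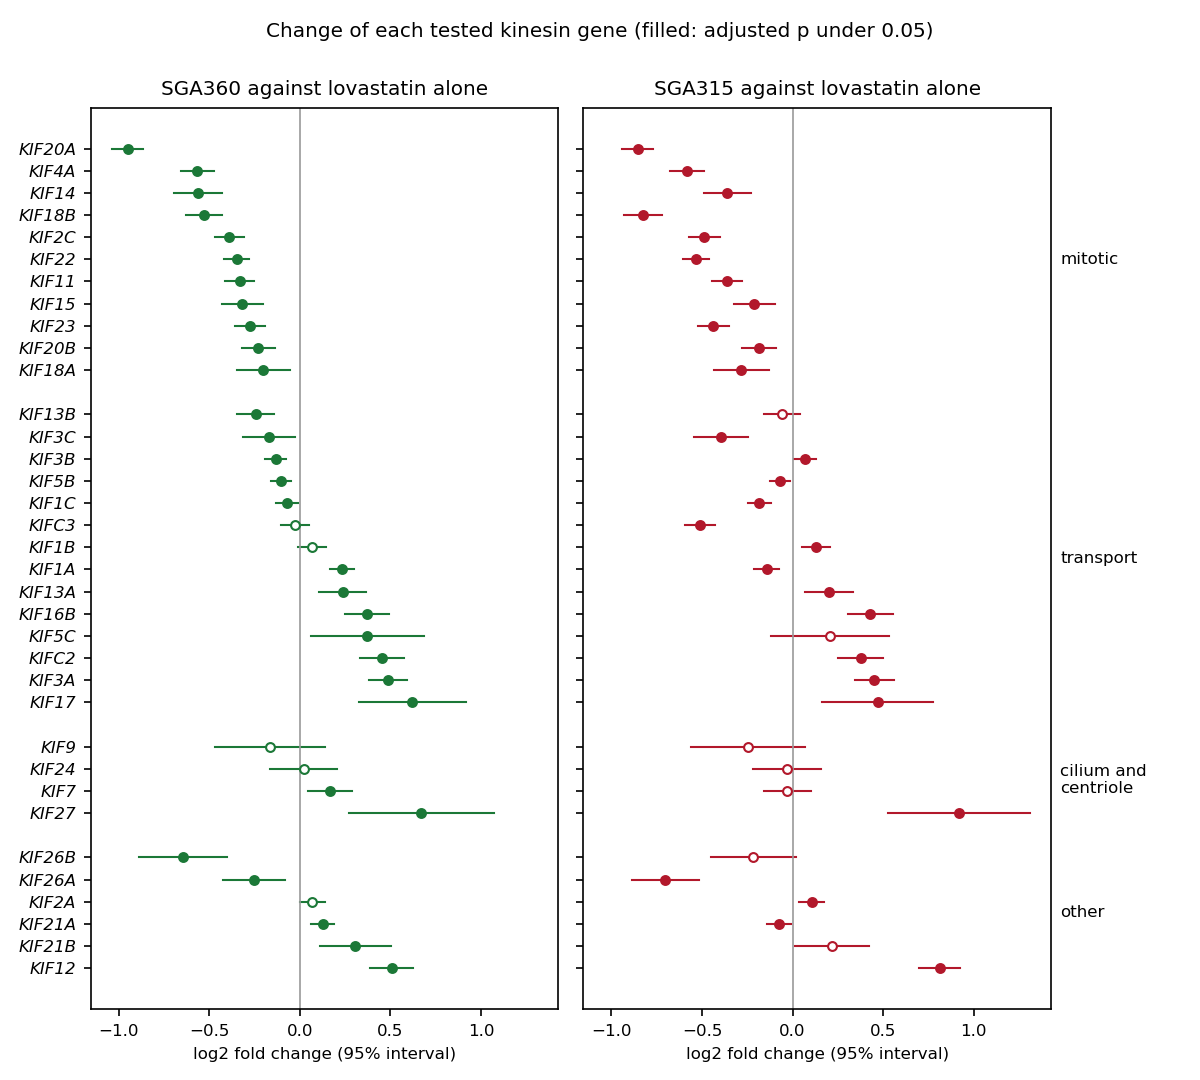
Log2 fold change with its 95% interval for the 35 tested kinesin genes, SGA360 (left) and SGA315 (right) against lovastatin alone, in 4 classes sorted by the SGA360 value; filled points have an adjusted p under 0.05. All 11 mitotic genes lie left of 0 in both panels, and transport genes run from -0.24 to 0.62 on the left and from -0.51 to 0.47 on the right.

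The members of the kinesin-2 family carry cargo into cilia and along membranes. KIF3A, one of the pair of motor subunits of heterotrimeric kinesin-2, measured 34.8, 35.6 and 32.4 CPM with lovastatin alone, 45.7, 48.0 and 50.3 CPM with SGA360, and 46.4, 45.8 and 48.1 CPM with SGA315. It changed by 0.49 ± 0.053 (SE, adjusted p = 1.63e-12) with SGA360 and 0.45 ± 0.054 (SE, adjusted p = 2.84e-11) with SGA315, with both ligand groups above all lovastatin libraries. Its partner KIF3B measured 189, 194 and 196 CPM with lovastatin alone, 177, 177 and 173 CPM with SGA360, and 199.9, 203 and 205 CPM with SGA315. KIF3B changed by -0.13 ± 0.030 (SE, adjusted p = 9.55e-05) with SGA360 and by 0.07 ± 0.030 (SE, adjusted p = 0.0373) with SGA315, in opposite directions. The call of a rise with SGA315 was lost in 13 of 16 alternative settings, among them DESeq2, RLE scaling and the omission of any library but the third SGA360 one, and the fall with SGA360 when only totals were used (-0.02, adjusted p = 0.570).

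KIF3C, the alternative partner of KIF3A, measured 23.0, 25.4 and 25.03 CPM with lovastatin alone, 21.8, 23.0 and 19.97 CPM with SGA360, and 16.1, 19.4 and 20.5 CPM with SGA315. It changed by -0.17 ± 0.071 (SE, adjusted p = 0.0324) with SGA360 and -0.39 ± 0.075 (SE, adjusted p = 4.72e-06) with SGA315; the former was lost under 5 alternatives, among them the omission of the second or the third lovastatin library or of the third SGA360 library. KIFAP3, the non-motor subunit of the KIF3 complex, measured 28.6, 28.7 and 32.7 CPM with lovastatin alone, 34.3, 35.6 and 37.8 CPM with SGA360, and 48.8, 50.2 and 53.2 CPM with SGA315. It changed by 0.25 ± 0.059 (SE, adjusted p = 0.000188) and 0.75 ± 0.056 (SE, adjusted p = 2.54e-19), so that the motor subunit KIF3A and the adaptor rose with both ligands. KIF17, the homodimeric kinesin-2, measured 3.57, 3.38 and 3.31 CPM with lovastatin alone, 5.30, 5.51 and 4.88 CPM with SGA360, and 4.27, 5.26 and 4.69 CPM with SGA315. It changed by 0.62 ± 0.15 (SE, adjusted p = 0.000193) with SGA360 and 0.47 ± 0.15 (SE, adjusted p = 0.00559) with SGA315; without the second SGA315 library the latter was not called (adjusted p = 0.0541).

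Kinesin-1 motors haul vesicles and mitochondria. KIF5B, the ubiquitous heavy chain, measured 505, 502 and 508 CPM with lovastatin alone, 482, 470.4 and 456 CPM with SGA360, and 486, 465 and 492 CPM with SGA315. It changed by -0.10 ± 0.027 (SE, adjusted p = 0.00062) with SGA360 and -0.07 ± 0.027 (SE, adjusted p = 0.0184) with SGA315, and with totals alone the values were 0.010 and 0.051, of the opposite sign. Its call with SGA315 was also lost without the second SGA315 library. KIF5C, the neuronal heavy chain, measured 3.63, 2.85 and 3.50 CPM with lovastatin alone, 4.70, 4.23 and 4.01 CPM with SGA360, and 3.75, 4.28 and 3.56 CPM with SGA315. The SGA360 libraries lay above the lovastatin libraries, and the SGA315 libraries overlapped them. Its rise with SGA360 (0.37 ± 0.16, SE, adjusted p = 0.033) was lost under 6 of 16 alternatives (DESeq2, the entry with the lowest total, and without the second or the third lovastatin library or the first or the second SGA360 library), and it was not called with SGA315 (0.21 ± 0.16, SE, adjusted p = 0.258). A list of 20 light chains and cargo adaptors had 6 rises and 3 falls with SGA360 and 9 and 4 with SGA315 (medians 0.02 and 0.06). Of all genes, 31.4% and 36.1% rose and 31.4% and 33.2% fell. RHOT1, which links mitochondria to kinesin-1, changed by 0.57 ± 0.049 (SE, adjusted p = 2.54e-16) and 0.61 ± 0.049 (SE, adjusted p = 9.66e-18). Among the falls, RHOT2 changed by -0.26 ± 0.043 (SE, adjusted p = 4.11e-07) and -0.22 ± 0.044 (SE, adjusted p = 7.85e-06). The light chain KLC2 changed by -0.26 ± 0.046 (SE, adjusted p = 9.98e-07) and -0.41 ± 0.047 (SE, adjusted p = 1.54e-11). KLC4, a kinesin light chain, measured 29.6, 29.1 and 26.6 CPM with lovastatin alone, 27.2, 27.2 and 28.5 CPM with SGA360, and 45.3, 44.0 and 41.7 CPM with SGA315. It changed by -0.04 ± 0.062 (SE, adjusted p = 0.561), not called, with SGA360 and 0.62 ± 0.057 (SE, adjusted p = 1.80e-15) with SGA315.

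Kinesin-3 motors move vesicle precursors and endosomes. KIF16B, the motor of early endosomes, measured 24.3, 26.6 and 26.2 CPM with lovastatin alone, 32.1, 35.8 and 31.4 CPM with SGA360, and 33.1, 35.5 and 35.2 CPM with SGA315. It changed by 0.37 ± 0.062 (SE, adjusted p = 3.50e-07) with SGA360 and 0.43 ± 0.062 (SE, adjusted p = 9.68e-09) with SGA315, and the ligand libraries were all above the lovastatin libraries. KIF13A, a motor of recycling endosomes, changed by 0.24 ± 0.065 (SE, adjusted p = 0.00116) and 0.20 ± 0.066 (SE, adjusted p = 0.00616). The SGA315 call was lost with DESeq2 and without the first SGA315 library. On the least covered transcript entry of KIF13A neither was called (0.16, adjusted p = 0.677, and -0.22, adjusted p = 0.594). That entry held 119 counts over all libraries, against 3567 for the highest entry. KIF13B, which carries the polarity protein DLG1, measured 46.2, 47.7 and 48.3 CPM with lovastatin alone, 42.1, 38.6 and 39.3 CPM with SGA360, and 46.2, 43.4 and 47.1 CPM with SGA315. Its SGA360 libraries were the lowest of the 9. It changed by -0.24 ± 0.051 (SE, adjusted p = 2.83e-05) with SGA360 and was not called with SGA315 (-0.06 ± 0.050, SE, adjusted p = 0.309).

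KIF1A, a motor of dense-core and synaptic vesicle precursors, measured 125, 131 and 127 CPM with lovastatin alone, 152, 151 and 146 CPM with SGA360, and 114, 116 and 116 CPM with SGA315. All SGA360 libraries were above, and all SGA315 libraries below, the lovastatin libraries. Its change was 0.23 ± 0.033 (SE, adjusted p = 8.72e-09) with SGA360 and -0.14 ± 0.035 (SE, adjusted p = 0.000207) with SGA315; with totals alone the latter was -0.02 (adjusted p = 0.558). KIF1B, which carries mitochondria and synaptic vesicle precursors by isoform, was not called with SGA360 (0.07 ± 0.038, SE, adjusted p = 0.115) and changed by 0.13 ± 0.039 (SE, adjusted p = 0.00212) with SGA315. Its second transcript entry held 49.3%, 49.6% and 52.2% of the counts of the highest entry with lovastatin alone, 48.7%, 48.8% and 54.2% with SGA360 and 44.4%, 46.9% and 46.9% with SGA315. On its least covered entry the SGA315 change was -0.0084. KIF1C, a motor of Golgi-derived vesicles, changed by -0.07 ± 0.031 (SE, adjusted p = 0.0407) and -0.18 ± 0.032 (SE, adjusted p = 5.41e-07). The SGA360 call of KIF1C was lost without the second lovastatin or the third SGA360 library, and its value was 0.044 with totals alone, which also ended the SGA315 call (-0.06, adjusted p = 0.0648).

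The kinesin-14 motors KIFC2 and KIFC3 walk towards minus ends. KIFC3, which acts at adherens junctions of epithelial cells, measured 106, 114 and 99.6 CPM with lovastatin alone, 103, 107 and 103 CPM with SGA360, and 76.0, 76.5 and 71.6 CPM with SGA315. With SGA360 it was not called (-0.03 ± 0.039, SE, adjusted p = 0.578), the value being 0.089 with totals alone (adjusted p = 0.0389) and 0.022 without the second lovastatin library, and with SGA315 it changed by -0.51 ± 0.041 (SE, adjusted p = 1.17e-17), with all 3 SGA315 libraries below the other 6. KIFC2, a neuron-enriched relative, measured 24.0, 23.5 and 23.7 CPM with lovastatin alone, 31.1, 33.9 and 32.4 CPM with SGA360, and 30.2, 31.8 and 30.5 CPM with SGA315. It changed by 0.45 ± 0.061 (SE, adjusted p = 1.76e-09) with SGA360 and 0.38 ± 0.063 (SE, adjusted p = 2.88e-07) with SGA315, each ligand group lying above the lovastatin libraries. The opposing motor is dynein with its cofactor dynactin. Of 23 tested dynein and dynactin genes 5 rose and 9 fell with SGA360, and 7 rose and 11 fell with SGA315 (medians -0.04 and -0.06). The rises were 21.7% and 30.4% of the list, against 31.4% and 36.1% of all genes, and the falls 39.1% and 47.8%, against 31.4% and 33.2%. DCTN1, the large dynactin subunit that binds microtubules, changed by -0.24 ± 0.032 (SE, adjusted p = 8.91e-10) and -0.29 ± 0.032 (SE, adjusted p = 5.00e-12). DYNLRB1, a light chain, changed by -0.19 ± 0.033 (SE, adjusted p = 6.70e-07) and -0.42 ± 0.034 (SE, adjusted p = 1.56e-17). DCTN4, a pointed-end subunit, changed by 0.12 ± 0.033 (SE, adjusted p = 0.00133) and 0.34 ± 0.032 (SE, adjusted p = 8.08e-15).

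Of the 5 kinesins of cilia and centrioles 4 were tested. Of these, 2 rose with SGA360 and 1 with SGA315, against 31.4% and 36.1% of all genes, and none fell. KIF27, a relative of KIF7 that is linked to motile cilia, measured 2.15, 1.88 and 1.56 CPM with lovastatin alone, 3.01, 3.07 and 2.75 CPM with SGA360, and 4.01, 2.87 and 3.63 CPM with SGA315. It changed by 0.67 ± 0.20 (SE, adjusted p = 0.00278) with SGA360 and 0.92 ± 0.20 (SE, adjusted p = 3.58e-05) with SGA315, and its lovastatin libraries were the 3 lowest of the 9. KIF7, which organises the ciliary tip for Hedgehog signalling, measured 24.5, 25.4 and 24.96 CPM with lovastatin alone, 28.2, 28.7 and 26.8 CPM with SGA360, and 24.2, 24.3 and 24.7 CPM with SGA315. It was called with SGA360 (0.17 ± 0.062, SE, adjusted p = 0.0156), a call lost under 5 of 16 alternatives (DESeq2, and without the first or the third lovastatin library or the first or the second SGA360 library), and not with SGA315 (-0.03 ± 0.065, SE, adjusted p = 0.69). TICRR, which overlaps KIF7 and held more counts, changed by -0.65 ± 0.046 (SE, adjusted p = 7.86e-20) and -0.72 ± 0.048 (SE, adjusted p = 1.43e-21). KIF24, which blocks cilium assembly at the centriole, ranged from 10.5 to 11.5 CPM over all libraries and was not called. UBAP1, which overlaps KIF24 and held more counts, changed by 0.16 ± 0.052 (SE, adjusted p = 0.00574) and 0.13 ± 0.053 (SE, adjusted p = 0.0317). KIF9, of motile cilia, was not called either, at 3.49 to 5.18 CPM, and KIF6 (0.181 to 0.789 CPM) failed the filter.

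Among the other kinesins, KIF12, a gene of liver and kidney epithelium, measured 27.2, 24.3 and 25.3 CPM with lovastatin alone, 36.7, 35.8 and 36.9 CPM with SGA360, and 43.7, 44.7 and 46.9 CPM with SGA315. The 3 groups did not overlap, with SGA315 the highest. KIF12 changed by 0.51 ± 0.059 (SE, adjusted p = 1.69e-11) with SGA360 and 0.81 ± 0.057 (SE, adjusted p = 1.96e-20) with SGA315. With a fold threshold of 1.5 it was called higher with SGA315, as were 5.61% of all genes.

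KIF26A, a divergent kinesin that lacks ATPase activity, measured 16.6, 18.8 and 15.2 CPM with lovastatin alone, 14.2, 12.9 and 15.5 CPM with SGA360, and 9.34, 11.4 and 10.2 CPM with SGA315. With SGA360 its change was -0.25 ± 0.086 (SE, adjusted p = 0.00856), the libraries overlapped, and the call was lost without the second lovastatin library, without the second SGA360 library and with totals alone. With SGA315 it changed by -0.70 ± 0.094 (SE, adjusted p = 9.43e-10), with no overlap. Its close relative KIF26B measured 10.7, 9.60 and 8.62 CPM with lovastatin alone, 7.59, 6.20 and 4.25 CPM with SGA360, and 8.62, 8.55 and 7.64 CPM with SGA315. It changed by -0.65 ± 0.12 (SE, adjusted p = 5.68e-06) with SGA360 and was not called with SGA315 (-0.22 ± 0.12, SE, adjusted p = 0.0944). Its SGA360 libraries spread from 4.25 to 7.59 CPM.

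KIF21A and KIF21B slow the growth of microtubule plus ends. KIF21A measured 169, 169 and 171 CPM with lovastatin alone, 186, 183 and 187 CPM with SGA360, and 157, 158 and 168 CPM with SGA315. It changed by 0.13 ± 0.031 (SE, adjusted p = 0.000347) with SGA360 and -0.07 ± 0.032 (SE, adjusted p = 0.0335) with SGA315; with totals alone the latter was 0.05 (adjusted p = 0.187), and it was also lost without the first SGA315 library. KIF21B changed by 0.31 ± 0.099 (SE, adjusted p = 0.00543) with SGA360, lost without the second SGA360 library, and was not called with SGA315 (0.22 ± 0.10, SE, adjusted p = 0.0523). KIF2A, which depolymerises microtubules at spindle poles and in resting cells, was not called with SGA360 (0.07 ± 0.035, SE, adjusted p = 0.0793) and changed by 0.11 ± 0.035 (SE, adjusted p = 0.00583) with SGA315. Its SGA315 call was lost with DESeq2 and without the second lovastatin library. Counted with the mitotic class it would be the 1 member that rose with SGA315.

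**Figure D4:**
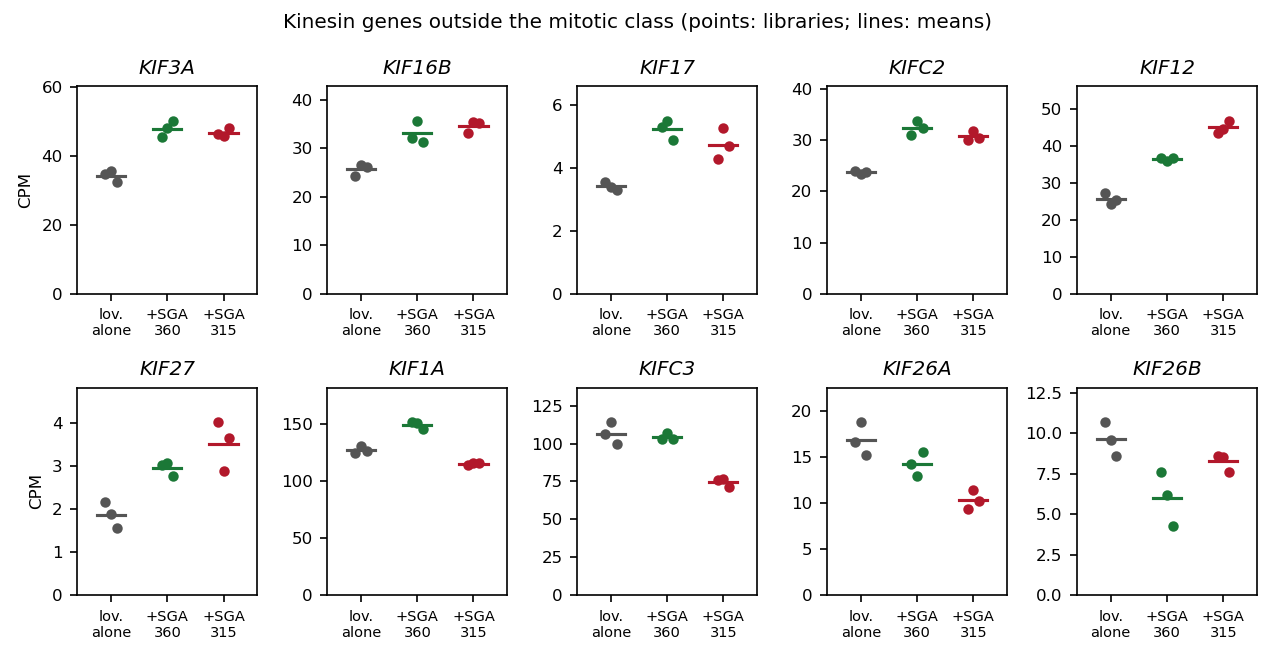
CPM in each library for 10 kinesin genes outside the mitotic class (points are libraries, lines are means of 3, axes start at 0); KIF17, KIFC3, KIF27, KIF12, KIF26A and KIF26B met the size rule, and KIF3A, KIF16B, KIFC2 and KIF1A were added after their values were seen. KIF3A, KIF16B, KIF17, KIFC2, KIF12 and KIF27 lie above the lovastatin libraries in both ligand groups, KIF1A does so with SGA360 but not SGA315, and KIFC3 is lower with SGA315 alone.

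The make-up of the kinesin counts, which were not corrected for transcript length, shifted in proportion. Mitotic kinesins gave 30.5% ± 0.245 (SD, n = 3) of all counts of the 37 genes with lovastatin alone, 24.3% ± 0.197 with SGA360 and 24.0% ± 0.239 with SGA315. Transport kinesins gave 53.9% ± 0.430, 57.7% ± 0.0490 and 58.1% ± 0.0494 in the same order. The 37 genes together held 0.245%, 0.246% and 0.239% of all counts. Shares sum to a whole, so a fall in 1 class raises the others' shares. A single gene can weigh heavily: KIF5B held 7508 of the 38392 member counts in the first lovastatin library.

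SGA360 and SGA315 were given at the same dose and time, which makes 1 pair to compare. Of the 35 tested genes 10 were higher with SGA360 (28.6%), 5 were higher with SGA315 (14.3%) and 20 were not called. Of all genes 42.7% were called, 21.8% as higher and 20.9% as lower with SGA360. The share of members called was thus close to that of all genes. The ligand libraries did not overlap for 11 genes that were higher and 5 that were lower with SGA360, against 24.5% and 24.6% of all genes. In the mitotic class 3 genes were higher (27.3%) and 1 lower (9.09%) with SGA360. KIF18B (0.30 ± 0.056, SE, adjusted p = 1.12e-05), KIF22 (0.19 ± 0.037, SE, adjusted p = 2.52e-05) and KIF23 (0.17 ± 0.044, SE, adjusted p = 0.00141) were higher with SGA360. KIF14 was lower (-0.20 ± 0.069, SE, adjusted p = 0.0137), a call lost with DESeq2 and without the third SGA360 or the first SGA315 library. For the 7 mitotic genes not called, among them KIF11, KIF4A, KIF20A and KIF2C, the 95% intervals of the difference ran from -0.223 at the lowest to 0.235 at the highest. These intervals are not adjusted for the number of genes, and those of KIF20A (-0.19 to -0.00012) and KIF2C (0.011 to 0.18) exclude 0. With RLE scaling KIF2C was called (edgeR, adjusted p = 0.0394). A p that misses the threshold does not show that the ligands act alike.

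Outside the mitotic class, with 14 transport, 4 cilium and centriole and 6 other kinesins tested, 11 genes differed between the ligands. Of all genes 42.7% did. KIFC3 (0.48 ± 0.041, SE, adjusted p = 5.30e-16), KIF26A (0.45 ± 0.096, SE, adjusted p = 8.65e-05) and KIF1A (0.37 ± 0.034, SE, adjusted p = 4.72e-15) were the furthest towards SGA360. KIF26B (-0.43 ± 0.13, SE, adjusted p = 0.00451, lost without the third SGA360 library), KIF12 (-0.31 ± 0.053, SE, adjusted p = 1.74e-06) and KIF3B (-0.20 ± 0.030, SE, adjusted p = 6.12e-08) were the furthest towards SGA315. Beyond the members, KIFAP3 (-0.50 ± 0.053, SE, adjusted p = 2.89e-12) and KLC4 (-0.67 ± 0.057, SE, adjusted p = 5.44e-16) were lower with SGA360 than with SGA315. For KIF3A (-0.06 to 0.13), KIF16B (-0.17 to 0.06), KIFC2 (-0.04 to 0.19) and KIF17 (-0.12 to 0.43), which rose with both ligands, the difference was not called, and the interval of KIF17 was the widest of these 4.

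**Figure D5:**
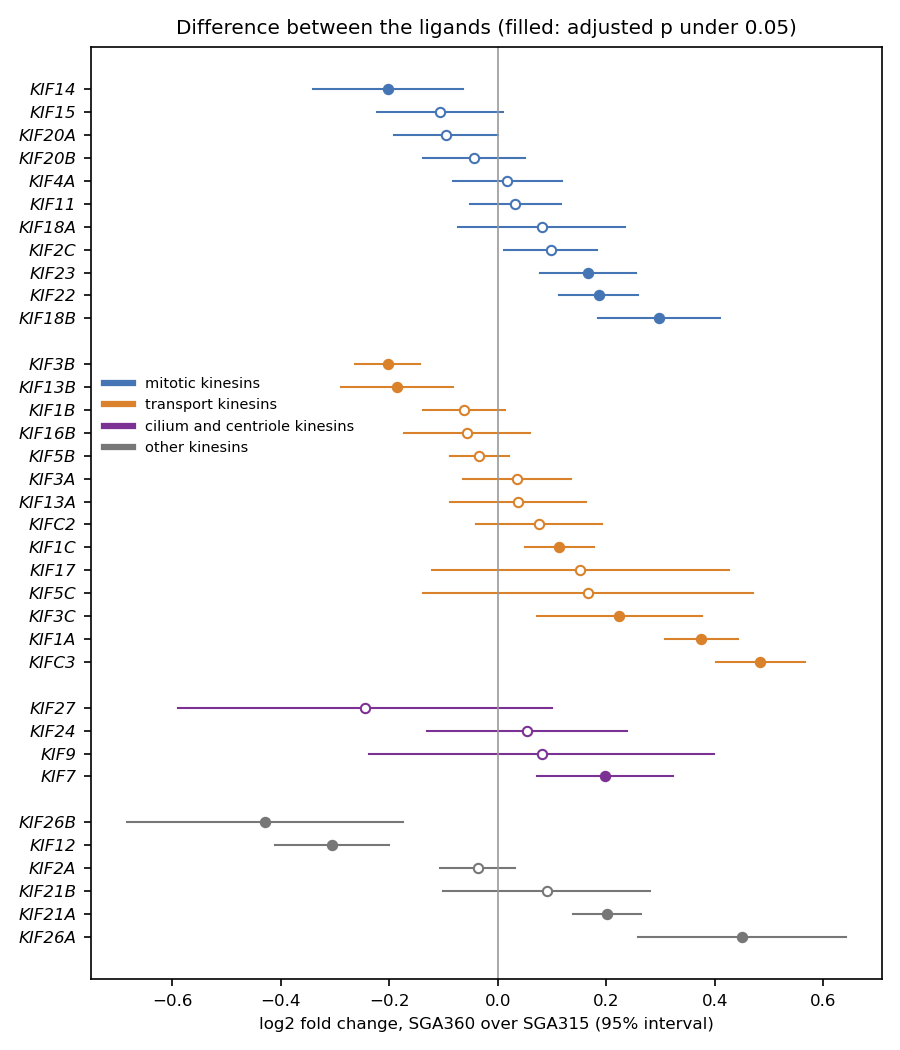
Log2 fold change of SGA360 over SGA315 with its 95% interval for the 35 tested kinesin genes, coloured by class; filled points have an adjusted p under 0.05. Positive values are higher with SGA360; KIFC3, at 0.48, and KIF26B, at -0.43, are the ends of the range.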

How the data were processed

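The authors deposited raw counts for each RefSeq transcript entry in each library, per the file headers, as whole numbers with no normalisation. Per the submitters' processing notes the tools were TopHat2 2.0.13 and HTSeq 0.5.4p3 and the build hg19, with no role given. Strand setting: not given in the sources used here. Poly(A)-enriched RNA was sequenced, per the labels' protocols. Of 65325 entries, 64346 were named from a RefSeq gene table (GRCh38.p14) and 565 from GENCODE 29; the 414 others, with 0.224% of counts, were left out. Transcripts of a gene repeat each other's reads, so the entry with the highest total stood for a gene, and 65 genes with counts identical to another's were dropped. The builds differ, so no coordinates are given.

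Counts were tested with edgeR 4.0.16 (quasi-likelihood F test, TMM scaling, filterByExpr with minimum count 10 and minimum total 15, 1 coefficient per group, all 9 libraries) in R 4.3.3, checked on simulated data. Benjamini-Hochberg adjustment ran over 14659 genes. CPM are counts scaled to a common library size after TMM. Intervals are 95%. Alternatives were other scalings, DESeq2 1.42.0, no filter, only the compared groups, a replicate block, the entry with the lowest total, a 1.5-fold threshold, other class assignments and leaving out each library.

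The members, classes, partner lists and markers were chosen with earlier results of these data known, so lists are described by counts and medians without a test. Values in every library are given for all mitotic kinesins and, in the other classes, for genes called with a log2 fold change of at least 0.5 in either direction and a mean of at least 1 CPM; those of KIF1A, KIF3A, KIF3B, KIF3C, KIF5B, KIF5C, KIF7, KIF13B, KIF16B, KIF21A, KIFC2 and the partners KIFAP3, KLC4 and CENPE were added after their values were seen. Of each partner list the 3 genes with the smallest p are named, plus CENPE, STARD9, PRC1 and RACGAP1. RHOT2 and KLC2 were added after their values were seen. CDC23, TICRR and UBAP1 are named because they overlap a member.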

Additional observations from a re-analysis of the deposited data

Results flagged for a closer look

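KIF1A, KIF3B and KIF21A were called in opposite directions with the 2 ligands, and the difference between the ligands was itself past the threshold (edgeR quasi-likelihood test). The log2 difference of SGA360 over SGA315 was 0.375 for KIF1A (adjusted p = 4.72e-15), -0.203 for KIF3B (adjusted p = 6.12e-08) and 0.201 for KIF21A (adjusted p = 2.21e-07). The call of KIF1A with SGA315 did not hold with scaling to totals alone, nor did that of KIF21A with SGA315 or that of KIF3B with SGA360, and the cause was not tested. The call of KIF3B with SGA315 was lost in 13 of the 16 alternatives other than the test against a 1.5-fold change, and that of KIF21A with SGA315 also without the first SGA315 library (adjusted p = 0.0849). Under all 16 alternative settings that test for any change, the difference between the ligands kept its sign and its call for these 3 genes.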

How the results depend on the processing

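Scaling to totals alone moved the mitotic medians to -0.23 (SGA360) and -0.32 (SGA315) and the transport medians to 0.26 and 0.22, left 1 and 2 transport kinesins called lower, and turned the sign of KIF1C (0.044), KIF5B (0.010) and KIFC3 (0.089) with SGA360 and of KIF13B (0.064), KIF5B (0.051), KIF24 (0.088), KIF7 (0.091) and KIF21A (0.046) with SGA315. It called 6474 of all genes higher and 3136 lower with SGA360, against 4607 and 4603 with TMM, and 6928 and 3620 with SGA315, against 5289 and 4871. The entry with the lowest total gave transport medians of 0.11 (SGA360), -0.037 (SGA315) and 0.092 (SGA360 over SGA315), 4 transport kinesins higher with SGA315, and a turned sign for KIF13A (-0.22) and KIF1B (-0.0084) with SGA315 and KIF1B (0.062) between the ligands. The KIF13A entry used there held only 119 counts over all libraries. Without the filter the transport median with SGA360 was 0.055, KIF5A entering the class. The test against 1.5-fold called 841, 1574 and 183 of all genes in the 3 comparisons. It called 1 and 2 mitotic kinesins lower with SGA360 and SGA315, 0 higher and 0 lower between the ligands, and 0 transport kinesins in either direction in any comparison. With KIF3A, KIF3B, KIF3C and KIF17 outside the transport class, 3 members were lower with SGA360, 4 higher with SGA315 (median 0.037) and 1 lower in SGA360 over SGA315. With KIF2A as mitotic, 1 member of that class rose with SGA315 and the median was -0.40. DESeq2 called 0 mitotic kinesins lower in SGA360 over SGA315. The TMM factors were 0.943 to 0.952 in the lovastatin libraries and 1.022 to 1.032 in the ligand libraries. Scaling to totals alone leaves these factors out, which raises the changes with either ligand. The cause was not tested further for any of the settings above.

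Leaving out each library in turn gave mitotic medians of -0.39 to -0.34 and transport medians of 0.11 to 0.16 with SGA360, 3 to 5 transport kinesins lower with SGA360 (3 without the second lovastatin or the third SGA360 library), and, in SGA360 over SGA315, 0 to 2 mitotic kinesins lower (KIF14 lost, or KIF20A added without the third SGA315 library), mitotic medians of 0.0073 to 0.083 and transport medians of 0.036 to 0.096. It gave -0.089 to 0.022 for KIFC3 and -0.010 to 0.030 for KIF24 with SGA360, and, in SGA360 over SGA315, -0.015 to 0.083 for KIF11, -0.029 to 0.066 for KIF4A, -0.0074 to 0.094 for KIF13A, -0.012 to 0.25 for KIF9 and -0.015 to 0.16 for KIF21B. Leaving out 1 library also brought calls that the full set does not make: KIF1B and KIF2A with SGA360 (the third SGA360 library left out), KIF9 (the second lovastatin or the second SGA315), KIF21B (the third SGA315) and KIF26B (the third lovastatin) with SGA315, and KIF20A (the third SGA315) and KIF2C (the third SGA360) between the ligands. KIF3C lost its call between the ligands with DESeq2 (0.23, adjusted p = 0.0610) and without the second SGA360 or the first SGA315 library.

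Libraries with the same replicate number deviated together only weakly (correlations of 0.0156 to 0.0901, against -0.0640 to 0.0298 for different numbers), none reached 0.1, and not every library correlated best with its own number, so the samples were not treated as paired; a fit with the replicate block changed none of the 105 member calls (11 mitotic kinesins lower with each ligand; medians of all genes 0.02 and 0.04). Members at a few CPM, such as KIF5C, KIF9, KIF17 and KIF27, have the widest intervals at this depth.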
